A study of Caenorhabditis elegans with 15 samples.

Results

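The genes described here code for the oxidative phosphorylation machinery of Caenorhabditis elegans: nuclear-coded subunits and assembly factors of respiratory complexes I to V, and cytochrome c. They were chosen by sequence name from a list of 49 genes, with no cut on a measured value. The list was made with earlier results of these data known and holds genes that the study names. Of the 49 genes, 48 were found on the array, as 49 probes because ucr-2.1 has a probe for each of 2 isoforms. The arrays held 19084 gene probes in all. Wild-type N2 Bristol worms at the L4 to young adult stage were kept for 48 h in sediment from the Elbe, Rhine or Danube. There were 5 replicate exposures and 5 two-colour arrays per sediment. The sediment of each river was a combined sample from a single site. The spread between arrays and the p-values therefore concern exposures, not samples of a river. Bacteria were added as food in all 3 treatments, and worms kept without sediment were not analysed here. RNA came from whole worms of pooled vials, so fewer cells of a type and less RNA per cell cannot be told apart. Each array set the sediment sample (Cy5) against a common reference (Cy3) pooled from the RNA of all sediment treatments and a laboratory control. The Danube sediment, for which the chemical analyses showed the lowest pollution, was the baseline for the other two.

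Oxidative phosphorylation takes place in the inner mitochondrial membrane. Complex I takes electrons from NADH and complex II from succinate, and both pass them by way of ubiquinone to complex III, from which cytochrome c carries them to complex IV, where oxygen is reduced. Complexes I, III and IV pump protons, and complex V, the ATP synthase, uses the returning protons to make ATP. In C. elegans, mutations in several of these genes alter lifespan or sensitivity to oxygen, and the respiratory chain is a known target of metals and pesticides.

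The measure used throughout is the log2 ratio of Cy5 to Cy3 after print-tip loess, so 0 means the level of the reference and a difference of 1 means a 2-fold difference. The scanner software graded each spot, and a probe was tested if 3 or more of the 5 arrays from every sediment gave it a better grade than the lowest, which left 5347 probes. Of the members, 39 passed: 13 of 19 in complex I, 3 of 4 in complex II, 5 of 6 in complex III, 1 of 2 cytochrome c genes, 7 of 7 in complex IV and 10 of 11 in complex V. The genes not tested were nuo-5, lpd-5, C16A3.5, ndus-8 and nduf-5 of complex I, sdha-1 of complex II, ucr-2.1 (both probes) of complex III, cyc-2.2, and hpo-18 of complex V, whose probes had a clear spot on 1 to 10 of the 15 arrays. One listed gene, F22D6.4 of complex I, was not matched to a probe and was not analysed here. Correlations between arrays over the tested probes were low, with a median of 0.128 and a range of 0.003 to 0.342. Danube 2 and Rhine 1 had the widest log2 ratios, with an SD of 1.11 and 1.16 against 0.551 to 0.931 on the other 13 arrays. By image numbers the Danube 1 to 4 arrays belong to one slide series, and Danube 5 with all Elbe and Rhine arrays to another, so for the first 4 Danube arrays slide series and sediment cannot be told apart.

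No measured member passed an adjusted p of 0.05 in any of the 3 comparisons (limma, Benjamini-Hochberg over 5347 probes), where 1 of all probes (0.0187%) passed for Elbe against Danube and 0 (0%) for each of the others. The thresholds stated in the study's methods are looser: an unadjusted p under 0.05 together with a fold that is not between 0.7 and 1.4. By these, 0 of 39 members passed for Elbe against Danube, where 6.28% of all probes did, and none had an unadjusted p under 0.05, against 6.32% of all probes (a one-way analysis of variance of the Elbe and Danube arrays alone gave 1 member past the thresholds, beside 5.55% of all probes). For Rhine against Danube 5 of 39 passed (12.8%), all higher in Rhine, beside 12.8% of all probes, or 11.4% counting the higher ones alone. For Elbe against Rhine 2 of 39 passed (5.13%), both lower in Elbe, beside 10.5% of all probes and 8.02% counting the lower ones alone. These counts, and the shares of all probes, moved when single arrays were left out. For Rhine against Danube the count was 10 without Rhine 5 (all probes 13.4%), 8 without Danube 4 (all probes 11.3%), and 4 to 6 without any one of the others (all probes 9.01% to 14.1%). For Elbe against Danube it became 2 without Danube 5 (all probes 7.39%) or Elbe 3 (5.48%), and 1 without Danube 1, Danube 3, Elbe 1, Rhine 2 or Rhine 5 (5.39% to 6.66%). For Elbe against Rhine it was 0 without Rhine 1 (all probes 8.85%), 5 without Rhine 5 (11.6%), 4 without Danube 2 (12.4%) or Elbe 4 (9.86%), and 1 without Elbe 1, Elbe 3 or Rhine 3 (8.04% to 10.4%). The Rhine against Danube count also depended on the normalization, as did that of all probes: it was 12 (all probes 15.3%) with 1 loess curve per array, 22 (all probes 33.9%) with arrays centred on their median and no loess, and 0 (all probes 2.21%) when slide series was a block.

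Read by direction alone, 30 of 39 members had a positive difference for Elbe against Danube (57.1% of all probes did), 30 of 39 for Rhine against Danube (69.9% of all probes), and 10 of 39 for Elbe against Rhine (35.7% of all probes). The median difference of the members was 0.17 for Elbe against Danube, 0.40 for Rhine against Danube and -0.13 for Elbe against Rhine. The median of all tested probes was itself 0.08, 0.24 and -0.17 in the same comparisons. Both comparisons with Danube use the same 5 Danube arrays, so their values are not independent of each other. Between the complexes the medians lay close together for Elbe against Danube: 0.16 for complex I, 0.27 for complex II, 0.17 for complex III, 0.12 for complex IV and 0.23 for complex V, in which all 10 members were above 0. Rhine against Danube gave 0.47 for complex I, 0.30 for complex II, 0.18 for complex III, 0.30 for complex IV and 0.31 for complex V. For Elbe against Rhine they were -0.24, 0.10, -0.01, -0.18 and -0.08 in the order of the complexes, and all 7 members of complex IV were below 0.

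**Figure D1:**
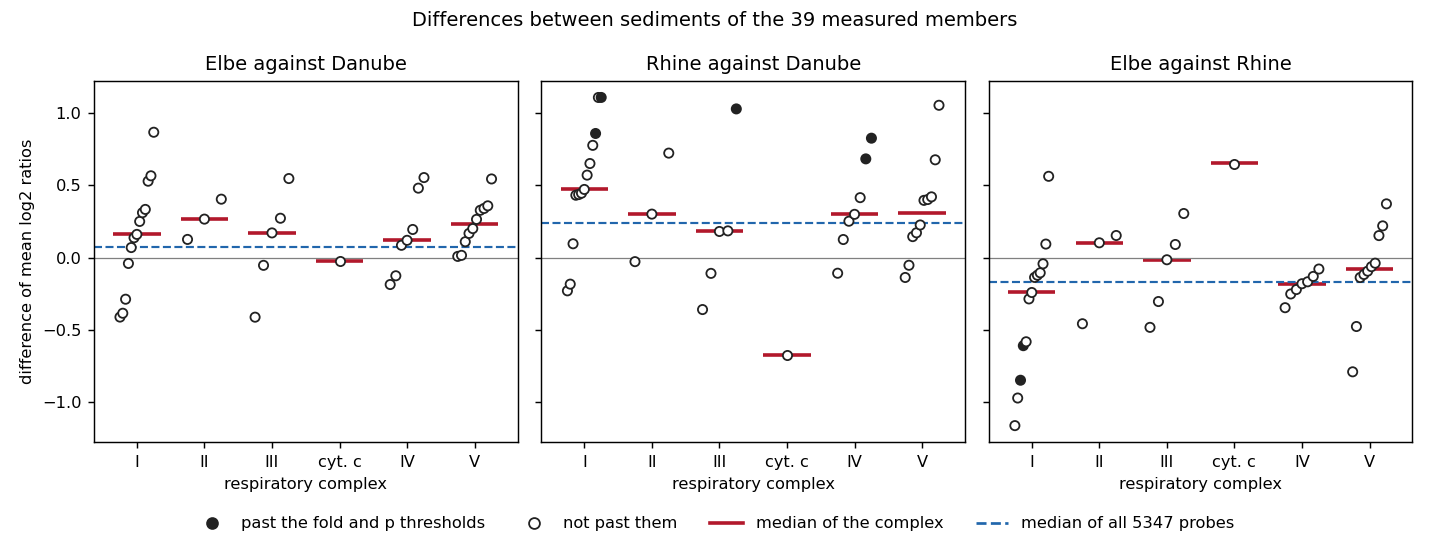
Difference of mean log2 ratios (vertical axis) for each of the 39 measured members, by complex, in the 3 comparisons. Each circle is a gene, filled where it passed the fold and p thresholds, the red bar is the median of the complex and the dashed line the median of all 5347 probes. The 5 filled circles for Rhine against Danube lie in complexes I, III and IV, and the medians of complexes I to V for Elbe against Danube lie between 0.12 and 0.27.

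Complex I, the largest group, had Rhine minus Danube differences of -0.23 to 1.11. ndua-5 (C33A12.1), an accessory subunit, had log2 ratios of -0.16, 0.18, -0.76, 0.29 and -0.06 on the Elbe arrays, 1.21, 0.42, 0.30, 0.40 and 0.20 on the Rhine arrays and -0.22, -0.27, -0.64, -0.18 and -0.46 on the Danube arrays. All Rhine arrays lay above all Danube arrays, Rhine 1 stood apart at the top, and the Elbe arrays overlapped with both sediments. The Rhine minus Danube difference was 0.86 (SE 0.26, unadjusted p = 0.00418, adjusted p = 0.338), with an exact two-sided permutation p of 0.00794, the smallest that 5 against 5 arrays allow. Such separation with Rhine higher was seen in 3 of 39 members (7.69%) and in 1.87% of all probes, whereas 0 of 39 members were separated with Elbe above Danube (1.31% of all probes) or with Elbe below Rhine (2.67% of all probes). The Elbe minus Rhine difference was -0.61 (SE 0.26, unadjusted p = 0.0311, adjusted p = 0.417) with an exact permutation p of 0.0159, and this call was lost without Elbe 1, Elbe 3 or Rhine 1, whereas the call against Danube held without any 1 array. When slide series was a block, in which case Danube rests on Danube 5 alone within the second series, the Rhine minus Danube difference was 0.97 and not past the thresholds. Danube 5, at -0.46, was below every Rhine array. The ratio divides the sediment signal (Cy5) by the reference signal (Cy3) of the same spot, so each channel was also compared alone, as log2 signal relative to the array's median probe. For ndua-5 the Rhine minus Danube difference was then 0.47 (SE 0.33, unadjusted p = 0.163, adjusted p = 0.67) in Cy5 and -0.31 (SE 0.33, unadjusted p = 0.363, adjusted p = 0.805) in Cy3, and neither was past the thresholds.

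ndub-7 (D2030.4), another accessory subunit, had log2 ratios of -1.16, 0.62, -0.23, 0.82 and -0.39 on the Elbe arrays, 2.35, 0.12, 0.48, 1.86 and -0.31 on the Rhine arrays and -0.04, -0.59, -0.25, 0.14 and -0.30 on the Danube arrays. Rhine 1 and Rhine 4 were far above the other 13 arrays, and Rhine 2 and Rhine 5 lay at the level of the Danube arrays. Its Rhine minus Danube difference was 1.11 (SE 0.48, unadjusted p = 0.0359, adjusted p = 0.369), with an exact permutation p of 0.0714, and it was no longer past the thresholds without Rhine 1 (0.75), Rhine 4 (0.87), Danube 2 (1.01), Danube 3 (1.10) or Danube 5 (1.09). In the Cy5 signal alone the difference was 0.27 (SE 0.33, unadjusted p = 0.432, adjusted p = 0.842) and not past the thresholds, and in Cy3 it was -0.76 (SE 0.39, unadjusted p = 0.0636, adjusted p = 0.595). The Elbe minus Rhine difference was -0.97 (SE 0.48, unadjusted p = 0.0622, adjusted p = 0.477).

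gas-1 (K09A9.5), a core subunit whose loss makes worms sensitive to volatile anaesthetics and to oxygen, had log2 ratios of 0.14, -0.13, -0.98, 0.41 and 0.0033 on the Elbe arrays, 1.29, -0.02, 0.86, 1.64 and -0.09 on the Rhine arrays and 0.27, 0.65, 0.29, 0.46 and -0.18 on the Danube arrays. The Rhine arrays fell into a high set (Rhine 1, 3 and 4) and a pair near 0, and the Elbe arrays overlapped with the pair. The Elbe minus Rhine difference was -0.85 (SE 0.36, unadjusted p = 0.03, adjusted p = 0.412) with an exact permutation p of 0.0952, which was no longer past the thresholds without Elbe 3 (-0.63), Rhine 1 (-0.71), Rhine 3 (-0.82) or Rhine 4 (-0.62). In Cy5 alone the direction turned, with a difference of 0.07 (SE 0.33, unadjusted p = 0.839, adjusted p = 0.972), while the Cy3 reference signal was higher on the Elbe arrays by 0.85 (SE 0.37, unadjusted p = 0.035, adjusted p = 0.498). Its paralogue nduf-2.2 (T26A5.3) had -2.16, -0.80, 0.72, 0.09 and -0.12 on the Elbe arrays, 1.93, 0.16, 1.01, 0.78 and -0.34 on the Rhine arrays and 0.83, -1.62, 0.81, -0.67 and 0.29 on the Danube arrays, with a wide spread in every sediment. For nduf-2.2 the Elbe minus Rhine difference was -1.16 (SE 0.58, unadjusted p = 0.0628, adjusted p = 0.479), and the groups overlapped. Paralogues share sequence, so signal of one may contribute to the probe of the other.

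ndub-2 (F44G4.2), an accessory subunit, and nduv-2 (F53F4.10), an iron-sulphur core subunit of the arm that oxidises NADH, are among 6 members that the study names as responding genes. That list was drawn from these same samples, so it is no independent evidence of a direction. The values given first for these genes are ratios, whereas the value table that the authors deposited follows the Cy5 signal. Which of these measures the list rests on was not tested, and each channel alone is given further below. ndub-2 had log2 ratios of 0.02, 0.07, -0.24, 0.44 and 0.20 on the Elbe arrays, 0.07, -0.16, 0.52, 0.75 and -0.09 on the Rhine arrays and -0.17, -0.12, -0.57, -0.17 and -0.04 on the Danube arrays. The Danube values were all below 0, with Danube 3 lowest, and the Elbe arrays overlapped with them. The Elbe minus Danube difference was 0.31 (SE 0.24, unadjusted p = 0.206, adjusted p = 0.88) and the Rhine minus Danube difference 0.43 (SE 0.24, unadjusted p = 0.0863, adjusted p = 0.443). For nduv-2 the values were -0.04, 0.36, 0.41, 0.55 and 0.23 on the Elbe arrays, -1.88, 0.13, 0.07, 0.79 and -0.42 on the Rhine arrays and 0.17, -0.75, 0.28, 0.11 and 0.03 on the Danube arrays. Danube 2 and Rhine 1 were the lowest arrays of their sediments, and the Elbe minus Danube difference was 0.33 (SE 0.39, unadjusted p = 0.404, adjusted p = 0.925).

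The complex I members other than ndua-5, ndub-7 and gas-1 did not pass the thresholds. The largest Rhine minus Danube difference among them was that of nuo-6, an accessory subunit, at 1.11 (SE 0.66), for which the Danube 3 array at -4.30 lay far below the other 14. nuo-4 had a difference of 0.65 (SE 0.34) and nuo-1, the flavin-binding subunit, one of 0.57 (SE 0.39). At the low end were nduv-2 at -0.23 (SE 0.39) and nuo-3 at -0.18 (SE 0.46). Between them were ndua-2 at 0.47 (SE 0.44), nduf-7 at 0.45 (SE 0.25) and nuo-2 at 0.10 (SE 0.38).

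Complex II, succinate dehydrogenase, had 3 measured members and none past the thresholds. sdhb-1, the iron-sulphur subunit, had a Rhine minus Danube difference of 0.72 (SE 0.40, unadjusted p = 0.0901, adjusted p = 0.447) and an Elbe minus Danube difference of 0.27 (SE 0.40). mev-1, a membrane anchor whose mutation makes worms hypersensitive to oxygen, had differences of 0.41 (SE 0.41) for Elbe and 0.30 (SE 0.41) for Rhine. sdhd-1, the other membrane anchor, lay at 0.13 (SE 0.29) for Elbe and -0.03 (SE 0.29) for Rhine. Each of these differences was within the spread of the arrays, which overlapped.

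In complex III, isp-1 (F42G8.12), the Rieske iron-sulphur protein, had the lowest p of all members. Its log2 ratios were -0.15, 0.06, -0.57, 0.38 and -0.52 on the Elbe arrays, 0.71, 0.11, 0.06, 0.63 and 0.10 on the Rhine arrays and -0.20, -1.07, -0.80, -1.31 and -0.16 on the Danube arrays. All Rhine arrays were above all Danube arrays, and the Elbe arrays overlapped with both. The Rhine minus Danube difference was 1.03 (SE 0.29, unadjusted p = 0.00248, adjusted p = 0.338), about 2.04-fold, with an exact permutation p of 0.00794, and in the ratio it stayed past the thresholds without any 1 array. In the sediment signal alone the call was lost and the direction turned, with a difference of -0.03 (SE 0.35, unadjusted p = 0.923, adjusted p = 0.986) in Cy5, and the Cy3 reference signal had a difference of -0.99 (SE 0.38, unadjusted p = 0.0196, adjusted p = 0.502). Its Elbe minus Danube difference was 0.55 (SE 0.29, unadjusted p = 0.0745, adjusted p = 0.832). Danube 5, of the second slide series, was at -0.16. Of the first series, Danube 1 was at -0.20 and Danube 2 to 4 were at -1.07, -0.80 and -1.31. When slide series was a block, isp-1 had a Rhine minus Danube difference of 0.48 and was not past the thresholds, while Danube 5 was below every Rhine array.

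The remaining complex III genes showed no such separation. ucr-1 (F56D2.1), a core protein, had log2 ratios of -0.33, -0.38, -0.21, -0.10 and -0.30 on the Elbe arrays, -0.23, -0.21, 0.58, 0.27 and -0.21 on the Rhine arrays and 0.03, 0.34, 0.59, -0.21 and -0.01 on the Danube arrays. The Elbe values were the tightest of the 3 sediments and all below 0, although they overlapped with Danube 4. The Elbe minus Danube difference was -0.41 (SE 0.23, unadjusted p = 0.0958, adjusted p = 0.856), and its exact permutation p was 0.0159. It was the lowest difference of any measured member of complexes III and IV against Danube.

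The core protein 2 paralogues were spread widely. ucr-2.2 (T10B10.2) had log2 ratios of 1.02, -0.19, -0.39, 0.72 and -0.74 on the Elbe arrays, -0.49, -1.03, -0.78, 0.63 and 0.56 on the Rhine arrays and 0.33, -1.17, 0.09, 1.25 and 0.19 on the Danube arrays. ucr-2.3 (T24C4.1) had -1.28, -0.71, 1.08, 0.13 and -0.0048 on the Elbe arrays, 0.46, -0.09, 0.60, -1.87 and -0.34 on the Rhine arrays and -0.27, -1.26, -0.95, 0.19 and 0.14 on the Danube arrays. Neither showed a difference above its SE in any comparison. The ucr-2.1 probes, which failed the spot filter, ranged over -4.94 to 3.29 and -0.69 to 3.91, and their clear spots came from 4 arrays each. cyc-1, cytochrome c1, had differences of 0.17 (SE 0.31) for Elbe and 0.19 (SE 0.31) for Rhine against Danube.

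Of the cytochrome c genes, cyc-2.1 (E04A4.7) is another member named by the study, for the Rhine. Its log2 ratios were 0.14, 0.63, -0.06, 0.42 and -0.05 on the Elbe arrays, -1.39, -0.69, -0.19, -0.37 and 0.47 on the Rhine arrays and 0.05, 0.66, 0.25, 0.80 and -0.58 on the Danube arrays. Of the Rhine arrays 4 were below 0 and Rhine 5 was not, while of the Danube arrays 4 were above 0 and Danube 5 was not. Its Rhine minus Danube difference was -0.67 (SE 0.34, unadjusted p = 0.0654, adjusted p = 0.415), the most negative of the 39 members, with an exact permutation p of 0.127. Of the fits that left out 1 array, those without Danube 5 (-0.88) and without Rhine 5 (-0.90) passed the thresholds. For cyc-2.2 (ZC116.2), which failed the spot filter with clear spots on 8 arrays, the values were 0.20, -0.40, -0.37, 0.86 and -0.34 on the Elbe arrays, -1.12, -0.09, -0.38, 1.07 and -0.48 on the Rhine arrays and 0.52, -0.83, -0.02, -0.29 and -0.87 on the Danube arrays, and the sediments overlapped fully.

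**Figure D2:**
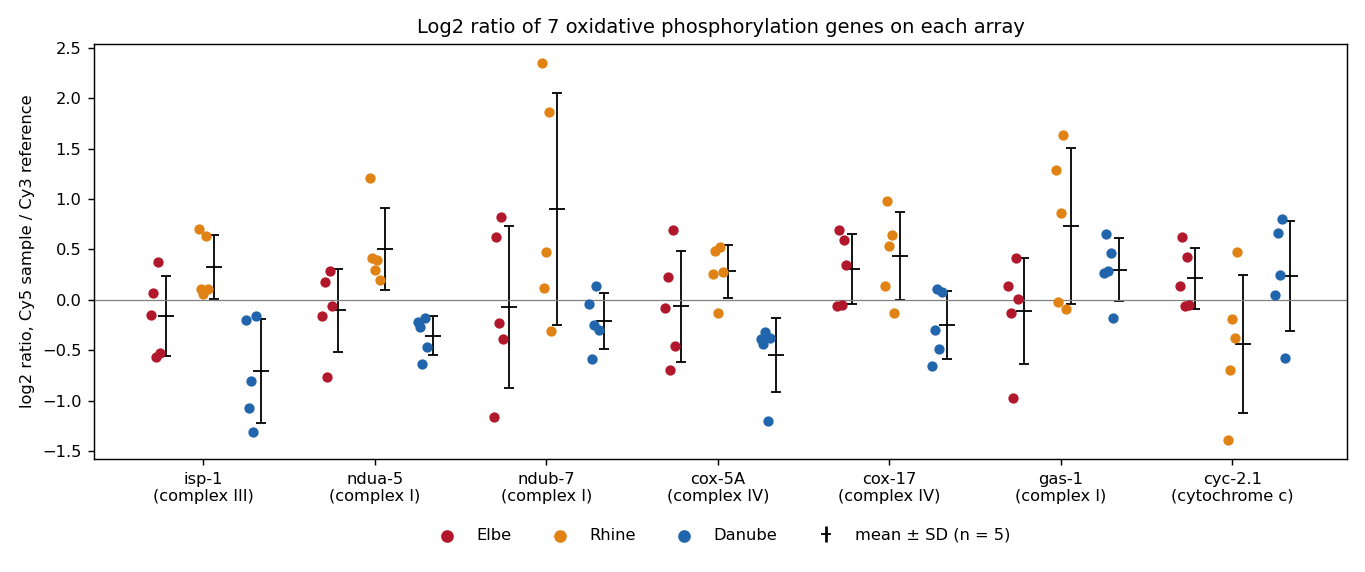
Log2 ratio of Cy5 to Cy3 (vertical axis) for the 6 genes past the thresholds in any comparison and for cyc-2.1, with a point per array and the mean ± SD of the 5 arrays beside them. For isp-1, ndua-5 and cox-5A all Rhine points lie above all Danube points, while for ndub-7 and gas-1 the Rhine points are split into a high and a low set.

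Complex IV, cytochrome c oxidase, was measured for all 7 of its members. cox-5A (Y37D8A.14), a nuclear-coded structural subunit, had log2 ratios of -0.09, 0.23, -0.69, 0.69 and -0.46 on the Elbe arrays, 0.25, 0.49, -0.13, 0.52 and 0.27 on the Rhine arrays and -0.39, -0.44, -0.32, -1.20 and -0.38 on the Danube arrays. All Rhine arrays were above all Danube arrays, of which Danube 4 stood apart at the bottom. The Rhine minus Danube difference was 0.83 (SE 0.28, unadjusted p = 0.01, adjusted p = 0.338) with an exact permutation p of 0.00794, and it held without any 1 array. With the slide series block the difference was 0.66 and not past the thresholds, and Danube 5, at -0.38, was below every Rhine array. In Cy5 alone the difference was 0.67 (SE 0.57, unadjusted p = 0.252, adjusted p = 0.748) and in Cy3 alone -0.08 (SE 0.52, unadjusted p = 0.884, adjusted p = 0.974), neither past the thresholds. Its Elbe minus Danube difference was 0.48 (SE 0.28, unadjusted p = 0.109, adjusted p = 0.856).

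cox-17 (F40G9.2), a copper chaperone for the assembly of complex IV and one of the genes named by the study for the Elbe, had log2 ratios of -0.06, 0.69, -0.05, 0.59 and 0.35 on the Elbe arrays, 0.14, 0.98, 0.53, 0.65 and -0.13 on the Rhine arrays and -0.66, -0.30, 0.11, -0.48 and 0.07 on the Danube arrays. Of the Elbe arrays 3 were above every Danube array, as were 4 of the Rhine arrays, and the others overlapped with Danube. Its Rhine minus Danube difference was 0.68 (SE 0.27, unadjusted p = 0.0216, adjusted p = 0.345), which was not past the thresholds without Danube 1 (0.58) or Rhine 2 (0.55). It was 0.57 (SE 0.31, unadjusted p = 0.0834, adjusted p = 0.605) in Cy5 alone, not past the thresholds, and -0.03 (SE 0.32, unadjusted p = 0.915, adjusted p = 0.982) in Cy3. The Elbe minus Danube difference was 0.55 (SE 0.27, unadjusted p = 0.0556, adjusted p = 0.809), the lowest p of any member in that comparison, with an exact permutation p of 0.0476.

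cox-7C (F26E4.6), a small structural subunit also named by the study for the Elbe, had log2 ratios of 0.05, 0.06, 0.20, 0.55 and 0.34 on the Elbe arrays, 0.41, 0.43, 0.21, 1.00 and -0.01 on the Rhine arrays and 0.18, 0.19, 0.08, 0.50 and -0.17 on the Danube arrays, and all groups overlapped. Its differences were 0.09 (SE 0.23, unadjusted p = 0.716, adjusted p = 0.961) for Elbe minus Danube and 0.25 (SE 0.23, unadjusted p = 0.293, adjusted p = 0.63) for Rhine minus Danube. The other 4 members, cox-4, cox-5B, cox-6A and cox-6B, had differences between -0.19 and 0.20 for Elbe and between -0.11 and 0.42 for Rhine against Danube, and none was past the thresholds.

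No member of complex V passed the thresholds, although all 10 measured members had a positive Elbe minus Danube difference, beside 57.1% of all probes. The complex V median was -0.87 on Danube 2 and -0.15 to 0.17 on the other Danube arrays. Without Danube 2 the differences of atp-1, atp-5 and asb-1 were no longer above 0. asb-2 (F02E8.1), a stalk subunit, had the largest of the 10 Elbe minus Danube differences. Its log2 ratios were 0.18, 0.32, -0.04, 0.61 and 0.23 on the Elbe arrays, 0.03, 0.30, -1.06, 0.36 and -0.19 on the Rhine arrays and -0.04, -1.36, -0.47, 0.10 and 0.35 on the Danube arrays. The Elbe arrays were close together and, apart from Elbe 3, above 0, and Danube 2 was the lowest array. Its Elbe minus Danube difference was 0.55 (SE 0.34, unadjusted p = 0.125, adjusted p = 0.863). Its germ line paralogue asb-1 (F35G12.10) had -0.04, -0.60, -0.19, -0.28 and -0.18 on the Elbe arrays, 3.20, -0.48, 0.17, 0.54 and -0.77 on the Rhine arrays and 0.24, -1.63, -0.04, -0.94 and -0.25 on the Danube arrays, where Rhine 1 at 3.20 was far above every other array. For asb-1 the Rhine minus Danube difference was 1.05 (SE 0.58, unadjusted p = 0.09, adjusted p = 0.447). The Elbe minus Danube difference was 0.33 (SE 0.30) for atp-3 and 0.36 (SE 0.30) for R04F11.2.

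atp-5 (C06H2.1), the stalk subunit d and the last of the genes named by the study for the Elbe, had log2 ratios of -0.47, 0.26, -0.14, 0.17 and -0.0026 on the Elbe arrays, 0.16, 0.13, 0.01, 0.17 and -0.06 on the Rhine arrays and -0.29, -0.81, 0.03, 0.52 and -0.17 on the Danube arrays. The groups overlapped, and the Elbe minus Danube difference was 0.11 (SE 0.25, unadjusted p = 0.663, adjusted p = 0.954). The catalytic subunits atp-1 (alpha) and atp-2 (beta) had Elbe minus Danube differences of 0.0092 (SE 0.23) and 0.34 (SE 0.24), and Rhine minus Danube differences of 0.15 (SE 0.23) and 0.40 (SE 0.24). R53.4, a membrane subunit, had a Rhine minus Danube difference of 0.68 (SE 0.33, unadjusted p = 0.0572, adjusted p = 0.405). The lowest differences in that comparison were those of F58F12.1 (subunit delta) at -0.14 (SE 0.52) and atp-4 at -0.05 (SE 0.30).

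The complexes were also summarised array by array. The median of the complex I members was -0.38, -0.05, -0.26, 0.41 and -0.06 on the Elbe arrays, 0.17, 0.12, 0.30, 0.78 and -0.08 on the Rhine arrays and -0.04, -0.55, -0.25, -0.17 and -0.18 on the Danube arrays. That of complex IV was -0.04, 0.38, -0.10, 0.69 and 0.01 on the Elbe arrays, 0.41, 0.43, 0.31, 0.75 and 0.03 on the Rhine arrays and 0.11, -0.24, 0.30, 0.44 and -0.12 on the Danube arrays. That of complex V was -0.01, 0.33, -0.08, 0.35 and 0.02 on the Elbe arrays, 0.16, 0.11, 0.16, 0.63 and -0.10 on the Rhine arrays and 0.10, -0.87, -0.15, 0.17 and 0.07 on the Danube arrays. In all 3 complexes Rhine 4 and Elbe 4 were the highest arrays of their sediments and Danube 2 was the lowest of its own. Complex I had the clearest difference, with the Rhine arrays at 0.26 ± 0.32 and the Danube arrays at -0.24 ± 0.19 (SD, n = 5 each), but Rhine 5 at -0.08 overlapped with Danube 1 at -0.04. Over all tested probes the Rhine arrays also averaged 0.16 ± 0.10 and the Danube arrays -0.02 ± 0.13. As a description over the 15 arrays, which all genes share, the median Pearson correlation between members was 0.223 over 741 pairs, against 0.059 for all pairs of tested probes. It was 0.386 within complex IV, 0.326 within complex V, 0.283 within complex I and -0.083 within complex III. With each sediment's mean removed the values were 0.304 for complex IV, 0.24 for complex V, 0.242 for complex I and -0.094 for complex III.

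**Figure D3:**
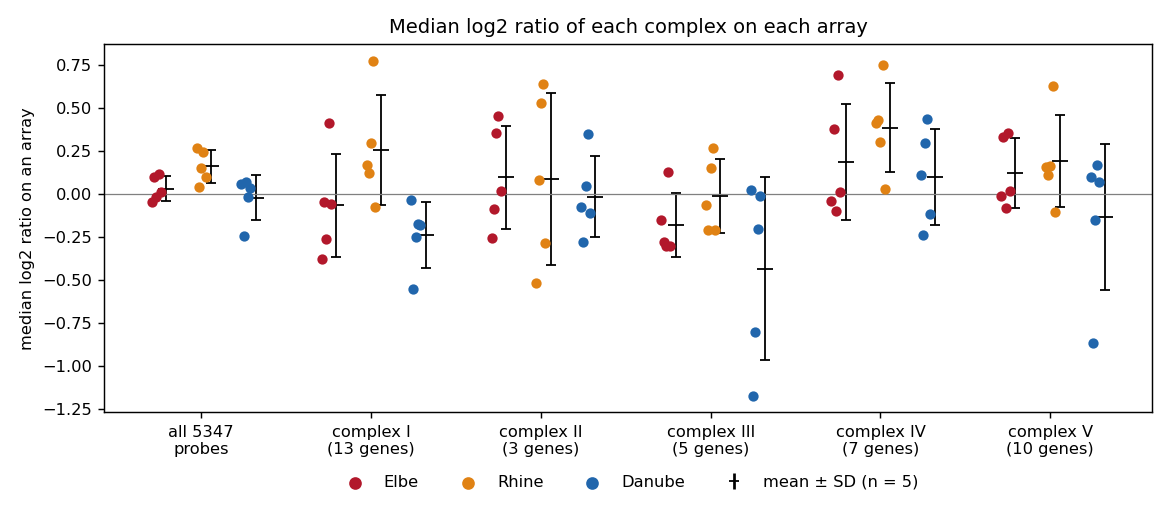
Median log2 ratio (vertical axis) of all tested probes and of the measured members of complexes I to V on each array, with a point per array and the mean ± SD of 5 arrays. The sediments overlap in every complex, and the lowest Danube point of each complex is the Danube 2 array.

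Each channel alone was also compared over all members. The comparison of the Cy3 channel was added after the data were seen. Every array carries the same reference RNA in Cy3. In the Cy5 channel alone, 5 of 39 members passed the thresholds for Elbe against Danube, all higher (12.8%, beside 7.24% of all probes). These were ndub-2, atp-5 and cox-7C, which the study names for the Elbe, and cox-6A and atp-3, which are named here because of these values. nduv-2 (0.625) and cox-17 (0.64), also named by the study for the Elbe, did not pass in Cy5. In the Cy3 channel alone 3 of the 5 that passed in Cy5, ndub-2, cox-6A and atp-5, also passed, all higher on the Elbe arrays (7.69%, beside 2.54% of all probes). In the Rhine comparison with Danube 1 member was lower in each channel, cyc-2.1 in Cy5 (2.56%, beside 4.47% of all probes) and isp-1 in Cy3 (2.56%, beside 7.67% of all probes). For Elbe against Rhine 1 member, ndub-2, was higher in Cy5 (2.56%, beside 6.62% of all probes) and 2, ndub-2 and gas-1, in Cy3 (5.13%, beside 8.43% of all probes). No member had an adjusted p under 0.05 in either channel in any comparison, where 0 to 2 of all probes did (0% to 0.0374%).

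ndub-2 showed this most plainly. Its Cy5 signal was 1.2, 2.99, 1.91, 3.23 and 4.81 on the Elbe arrays, 0.64, 2.16, 1.56, 1.27 and 2.01 on the Rhine arrays and 0.61, 1.69, 0.35, 0.41 and 1.44 on the Danube arrays. Its Cy3 signal was 1.07, 2.93, 2.06, 2.83 and 4.57 on the Elbe arrays, 0.58, 2.33, 1.01, 0.57 and 2.19 on the Rhine arrays and 0.74, 1.72, 0.91, 0.49 and 1.44 on the Danube arrays. On both channels Elbe 5 was the highest array and Elbe 1 the only Elbe array within the range of the Danube arrays. The Elbe minus Danube difference was 1.93 (SE 0.53, unadjusted p = 0.0018, adjusted p = 0.342) in Cy5 and 1.63 (SE 0.54, unadjusted p = 0.00698, adjusted p = 0.962) in Cy3, beside the ratio difference of 0.31 given above.

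For cox-6A (F54D8.2) the Elbe minus Danube difference was 1.11 (SE 0.45, unadjusted p = 0.0235, adjusted p = 0.526) in Cy5, 1.01 (SE 0.45, unadjusted p = 0.0396, adjusted p = 0.962) in Cy3 and 0.12 (SE 0.29) in the ratio. For atp-5 it was 0.90 (SE 0.35, unadjusted p = 0.0177, adjusted p = 0.499) in Cy5 and 0.80 (SE 0.38, unadjusted p = 0.0466, adjusted p = 0.962) in Cy3. For cox-7C it was 0.83 (SE 0.34, unadjusted p = 0.0241, adjusted p = 0.53) in Cy5 and 0.76 (SE 0.36, unadjusted p = 0.0503, adjusted p = 0.962) in Cy3. For atp-3 it was 0.82 (SE 0.39, unadjusted p = 0.0497, adjusted p = 0.568) in Cy5 and 0.51 (SE 0.32, unadjusted p = 0.135, adjusted p = 0.962) in Cy3. In each of these genes the reference channel, which holds the same RNA on every array, was higher on the Elbe arrays too, although for cox-7C not past the thresholds. What made the reference signal differ between arrays was not tested.

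**Figure D4:**
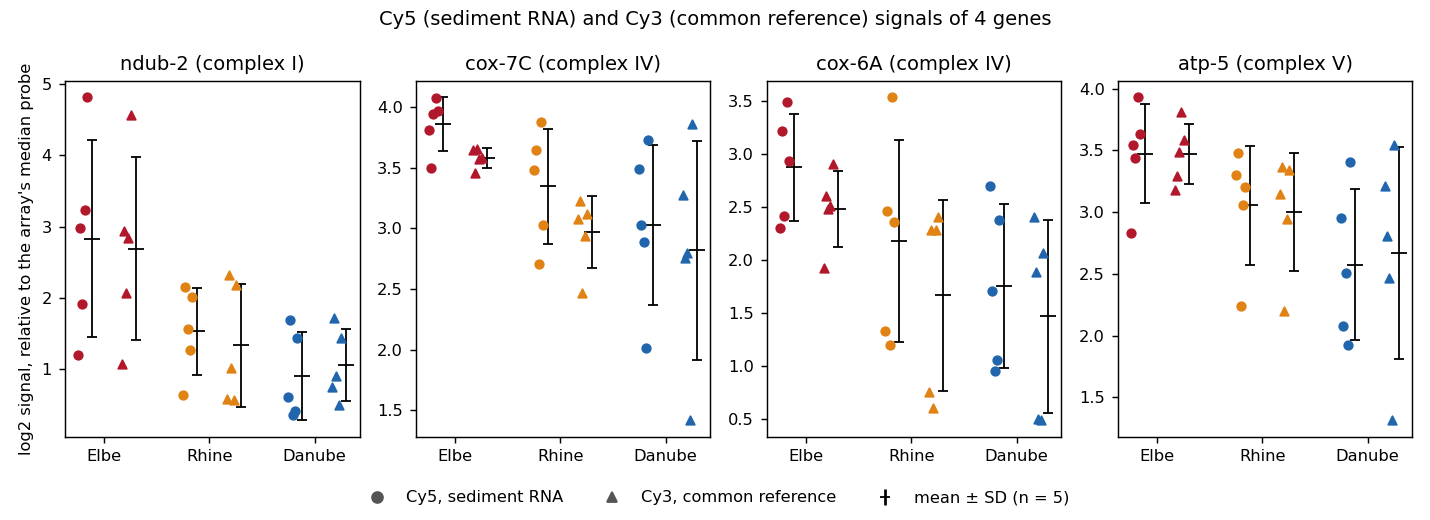
Log2 signal relative to the array's median probe (vertical axis) for 4 genes, chosen after their values were seen, that were higher in the Cy5 signal of the Elbe arrays than of the Danube arrays, with Cy5 as circles, Cy3 as triangles and the mean ± SD of 5 arrays. In each gene the mean of the triangles, the common reference, is higher on the Elbe arrays than on the Danube arrays, as is the mean of the circles. The gene atp-3, also past the thresholds in Cy5, is not shown.

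The complexes differed in this respect. For Elbe against Danube the complex IV median was 0.83 in Cy5 and 0.66 in Cy3, and that of complex V was 0.44 in Cy5 and 0.13 in Cy3, where all probes had medians of 0.14 and 0.08. Array by array, the complex IV median in Cy5 was 2.21 to 2.84 for Elbe, with Danube 1 (2.71) and Danube 5 (2.32) inside that range. Complex I was at 0.02 in Cy5 and 0.0021 in Cy3, complex II at 0.20 in Cy5 and -0.17 in Cy3, and complex III at 0.26 in Cy5 and 0.16 in Cy3. For Rhine against Danube the Cy5 medians of complexes I to V were 0.15, -0.14, -0.12, 0.42 and 0.02, and the Cy3 medians -0.39, -0.03, -0.19, 0.08 and -0.13. The Cy3 signal of isp-1, whose Rhine minus Danube difference of 1.03 in the ratio was -0.03 in Cy5, was 1.57, 2.34, 2.00, 2.22 and 2.23 on the Elbe arrays, 0.37, 1.72, 1.53, 1.43 and 1.76 on the Rhine arrays and 2.08, 2.05, 1.73, 3.79 and 2.09 on the Danube arrays. Danube 4 was the highest array and Rhine 1 the lowest.

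The member lower in Rhine in Cy5, cyc-2.1, which the study names for the Rhine, was not past the thresholds in the ratio. Its Cy5 signal was 1.50, 1.87, 0.65, 2.73 and 1.16 on the Elbe arrays, -0.07, -0.10, 1.41, 0.71 and 1.73 on the Rhine arrays and 1.85, 1.93, 1.81, 2.60 and 1.56 on the Danube arrays. Rhine 1, 2 and 4 and Elbe 3 were the lowest arrays, and Rhine 5 lay among the Danube arrays. The Rhine minus Danube difference was -1.21 (SE 0.42, unadjusted p = 0.00975, adjusted p = 0.454) in Cy5 and -0.46 (SE 0.33, unadjusted p = 0.174, adjusted p = 0.684) in Cy3.

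**Figure D5:**
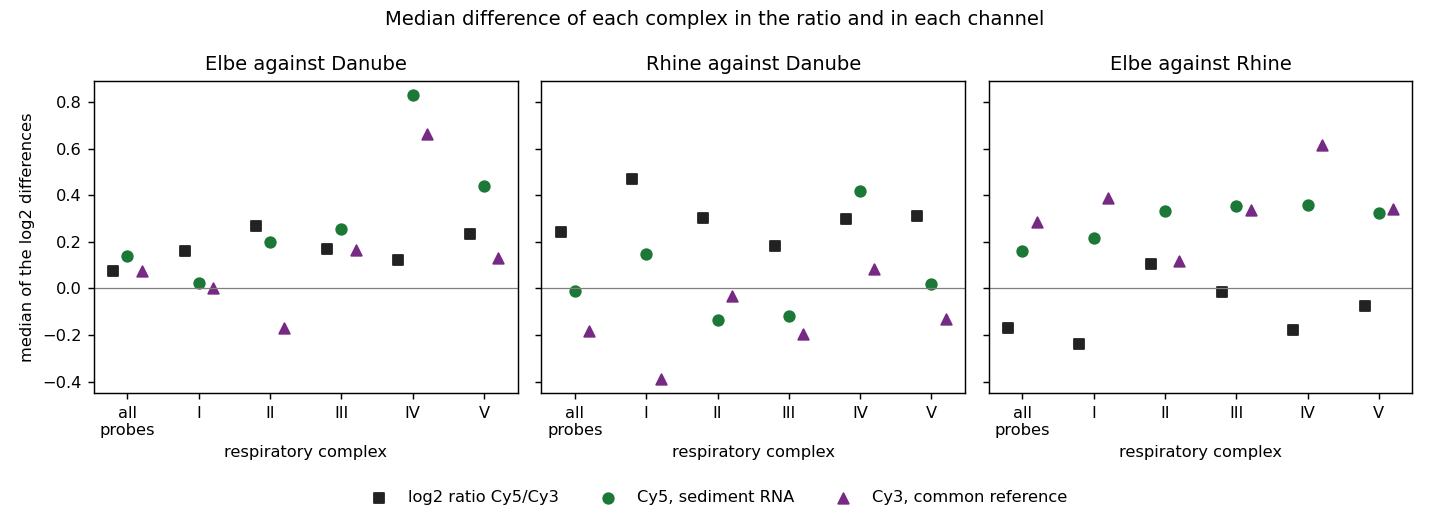
Median difference (vertical axis, log2) of all tested probes and of complexes I to V in the ratio, the Cy5 signal and the Cy3 signal, for the 3 comparisons. For Elbe against Danube complex IV is at 0.83 in Cy5 and 0.66 in Cy3 but at 0.12 in the ratio, and for Elbe against Rhine the Cy5 and Cy3 medians of all complexes are above 0 while those of the ratio are at or below 0.10.

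Further genes of the same pathway were counted from fixed lists. Of 36 further subunits and assembly factors, 20 probes were tested, and for Rhine against Danube 3 were past the thresholds and higher (ndub-6, asg-1 and ndua-12, at 0.93, 0.94 and 0.80) and 1 was lower (R07E4.3, at -0.91), where 11.4% of all probes were higher and 1.44% lower. For Elbe against Danube 0 of these 20 passed, and for Elbe against Rhine 1 was higher (R07E4.3, at 0.84) and 1 lower (ndub-5, at -1.44), where 2.49% of all probes were higher and 8.02% lower. Among 13 tested probes of the tricarboxylic acid cycle and pyruvate dehydrogenase, which supply the NADH and succinate, 1 passed for each comparison with Danube. For Elbe it was sucl-1 (-1.19, beside 1.95% of all probes past the thresholds and lower). For Rhine it was pdhb-1 (1.35, beside 11.4% of all probes past the thresholds and higher). Of the 4 tested genes of the mitochondrial stress response, sod-2, the mitochondrial superoxide dismutase, passed and was lower in Elbe than in Rhine (-0.67, beside 8.02% of all probes). No probe of coenzyme Q synthesis (1 tested) or of the mitochondrial carriers (2 tested) passed. No probe of these lists had an adjusted p under 0.05.

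Tissue markers were set beside these values. All 5 tested probes of body wall muscle markers had a positive difference against Danube in both sediments, with medians of 0.47 for Elbe and 0.72 for Rhine, where 57.1% and 69.9% of all probes were above 0 with medians of 0.08 and 0.24. Of these 5 markers 1 (unc-15, at 1.04) was past the thresholds and higher for Rhine, beside 11.4% of all probes. For Elbe against Rhine unc-15 was lower, at -0.93, beside 8.02% of all probes past the thresholds and lower. All 3 tested hypodermis markers (col-19, sqt-3 and dpy-13) passed for Rhine against Danube and were higher, with a median of 0.97 (11.4% of all probes, which had a median of 0.24), and 1 (sqt-3) for Elbe against Danube, with a median of 0.83 (4.34% of all probes, which had a median of 0.08). Of the 7 listed muscle markers, the summed share of an array's Cy5 signal was 0.0403% to 0.0625% in Elbe, 0.0417% to 0.071% in Rhine and 0.0328% to 0.126% in Danube, with medians of 0.0548% in Elbe, 0.0449% in Rhine and 0.0661% in Danube, so by this measure the medians were lower in Elbe and Rhine than in Danube. Every marker had a clear spot on some array. For the 6 hypodermis markers it was 0.0381% to 0.0921% in Elbe, 0.0354% to 0.0535% in Rhine and 0.0216% to 0.0452% in Danube, with medians of 0.0673%, 0.0392% and 0.0262% in the same order. Intestine (7 tested), germ line (4), sperm (1) and neuron markers (4) had medians between -0.12 and 0.43 against Danube. Of these 1 intestine marker (cpr-1) was past the thresholds. It was lower in Rhine than in Danube (-0.69, beside 1.44% of all probes) and higher in Elbe than in Rhine (1.13, beside 2.49% of all probes). Of the neuron markers 1 (egl-3) was lower in Elbe than in Rhine (-0.61, beside 8.02% of all probes). The summed Cy5 share of the 7 intestine markers was 0.147% to 0.203% in Elbe, 0.0904% to 0.137% in Rhine and 0.139% to 0.223% in Danube, so every Rhine array was below every Elbe and every Danube array. The 7 germ line markers summed to 0.0418% to 0.0584% in Elbe, 0.0295% to 0.0531% in Rhine and 0.0244% to 0.0515% in Danube, and the ranges overlapped, as did those of the sperm and neuron markers. The part of tissue makeup in the values of the members was not tested.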

How the data were processed

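RNA of whole worms from 15 exposures, 5 per sediment, was hybridised to two-colour spotted arrays, the sediment sample in Cy5 and a common reference in Cy3, with 1 dye orientation and no dye swap. The deposited spot files of the authors hold an intensity per channel, exported by BlueFuse 3.4 per the file headers, a deposited confidence score per spot and a ratio per spot, which was not used for tests. The authors also deposited a value table, a normalized signal whose rows carry no probe names. Each file held 22176 spots, of which 19806 were gene spots for 19084 probes.

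Print-tip loess (limma 3.58.1 under R 4.3.3, with 48 print-tip blocks) normalized the log2 ratios of Cy5 to Cy3. The other 2370 spots (control, empty or without a protein identifier) had weight 0, and spots of a probe were averaged. Probes were kept if 3 or more arrays of every sediment had a confidence over 0.05, the lowest grade, which left 5347 and removed 13737. One limma model over all 15 arrays gave the 3 comparisons, with Benjamini-Hochberg adjustment over 5347 probes. Exact permutation tests were two-sided over 252 splits of 5 against 5 arrays. No p adjusted over the members alone is given. The thresholds of the study's methods (unadjusted p under 0.05 and a fold of 1.4 or more, or 0.7 or less) were used for counts, since no member passed the adjusted p. The number of arrays limits the precision. The model code was tested on simulated data.

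Members and gene lists were chosen with earlier results of these data known. Described in full were the members past the thresholds, the 5 with the lowest p in each comparison, the 6 members listed by the study and the sets of paralogues. Named outside this rule, after their values were seen, were cox-6A and atp-3 in the channel comparison and the further pathway genes and markers past the thresholds.

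Replicate numbers did not pair the arrays: same-numbered arrays correlated over 0.1 in 0, 1 and 1 of 5 pairs in the 3 comparisons. Rows of the value table were named by matching their profile over 15 arrays to the Cy5 signal. The named rows therefore follow the Cy5 signal, and the 2 alternatives are not separate checks. Member rows matched at r of 0.9987 or more, against at most 0.962 for the next best match. The order of probe identifiers, which the matching did not use, was kept in 18318 of 18318 steps between named rows. Limits of 0.001 on the log2 and the linear scale left out some of the 49 member probes (48 and 47 were found), and the limit was then loosened to 0.01, by which all 49 were found and 18319 rows were named. Alternatives were other normalizations and filters, array weights, blocks, the Cy5 signal alone, the value table, a one-way analysis of variance of the 2 sediments compared, the kind of test the study's methods name, and leaving out arrays. The Cy3 signal alone was added after the data were seen. The genome build is not given in the sources used here, and no sequences or coordinates are printed.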

Additional observations from a re-analysis of the deposited data

Results flagged for a closer look

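In 5 of 84 groups of 5 arrays 1 array stood apart from the other 4, with a gap to the nearest of them of over 0.71 of the range of the group. Chance alone gives about 1 in 20 such groups. For ndua-5 Rhine 1 was at 1.21 on the log2 scale and the others at 0.20 to 0.42. For ndub-2 Danube 3 was at -0.57 and the others at -0.17 to -0.04. For nduv-2 Danube 2 was at -0.75 and the others at 0.03 to 0.28. For cox-5A Danube 4 was at -1.20 and the others at -0.44 to -0.32. The median of all tested probes was -0.24 on Danube 2 and -0.02 to 0.07 on the other Danube arrays. The causes were not tested.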

How the results depend on the processing

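A median is said to have moved where it differed by at least 1 SD between replicate arrays, and a count where it differed by over 1.5 times. The count of members with an adjusted p under 0.05 was 0 in every alternative. Of the alternatives' values for counts and overall medians 228 did not move and 48 did, where the 228 include all of these counts of 0. Of the values for medians by complex 395 did not move and 46 did. The cause of each move was not tested.

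Each count past the thresholds is followed by the share of all probes in brackets. For Elbe against Danube the count was 0 (6.28%). It became 1 with 1 loess curve (5.24%), with median centring (4.99%) and without the spot filter (4.24%). It was also 1 with confidence of at least 0.5 (9.91%, fewer genes tested) and with a one-way analysis of variance of the 2 sediments (5.55%). It was 5 in the Cy5 signal (8.77%), 3 in the Cy3 signal (3.52%) and 5 in the value table (6.08%). The fit without the spot filter and the value table held all 49 member probes. Without single arrays the count was 0 to 2 (4.86% to 7.39%). For Rhine against Danube the count of 5 (12.8%) became 12 with 1 loess curve (15.3%) and 22 with median centring (33.9%). It was 1 with confidence of at least 0.5 (15.9%), 1 in Cy5 (9.01%), 1 in Cy3 (8.96%) and 2 in the value table (7.26%). Without single arrays it was 4 to 10 (9.01% to 14.1%). With the replicate number as a block, where the samples share only a number, it was 8 (12.9%). The count for the fit that blocked on slide series is given above, and in that fit Danube rests on Danube 5 alone. For Elbe against Rhine the count of 2 (10.5%) became 6 with 1 loess curve (11.8%) and 6 with median centring (14.1%). It was 0 with confidence of at least 0.5 (12.4%) and 1 in Cy5 (9.05%). It was 0 without Danube 2 and Rhine 1 together (10.8%), and 0 to 5 without single arrays (8.04% to 12.4%).

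Median centring without loess moved the median of all probes to 0.28 for Elbe against Danube, 0.80 for Rhine against Danube and -0.53 for Elbe against Rhine. For Elbe against Danube the members' median was then 0.41 and that of complex II 0.58. In Cy3 complex II was at -0.17 and complex IV at 0.66, in Cy5 complex IV at 0.83, and in the value table complexes II, IV and V at -0.32, 0.82 and 0.67. Complex III was at -0.25 with the slide block.

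For Rhine against Danube the members' median was 0.67 with 1 loess curve (all probes 0.39), 1.16 with median centring, 0.04 in Cy5, -0.22 in Cy3 and 0.00 in the value table. Complex I was at 0.92 with 1 loess curve, 1.24 with median centring, 0.15 in Cy5, -0.39 in Cy3 and 0.18 in the value table. Complex II was at -0.14 in Cy5 and -0.38 in the value table. Complex III was at 0.80 with median centring and -0.26 with the slide block. With clear spots on all 15 arrays it was at 0.61, where it rests on isp-1 and cyc-1 alone. With confidence of at least 0.5 it was at 1.03, the value of isp-1 in the main fit. Neither is a value of the whole complex. With median centring complexes IV and V were at 1.25 and 1.2, and complex V was at -0.13 in Cy3.

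For Elbe against Rhine the members' median was -0.48 with 1 loess curve (all probes -0.28), -0.81 with median centring, 0.32 in Cy5, 0.38 in Cy3 and 0.30 in the value table. In that order of settings complex I was at -0.64, -0.76, 0.22, 0.39 and 0.16, complex III at -0.60, -0.81, 0.36, 0.34 and 0.35, complex IV at -0.50, -0.87, 0.36, 0.61 and 0.35, and complex V at -0.36, -0.83, 0.33, 0.34 and 0.36. Complex III was at -0.25 to 0.10 without single arrays. With clear spots on all 15 arrays, so for isp-1 and cyc-1 alone, it was at -0.25. With confidence of at least 0.5 it was at -0.48, the value that isp-1 had in the main fit.

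The direction of 2 genes past the thresholds turned outside the ratio of the 2 channels. isp-1 for Rhine against Danube was at -0.03 in Cy5 and -0.03 in the value table, and gas-1 for Elbe against Rhine at 0.07 in Cy5 and 0.06 in the value table. The rows of the value table were named by their match to the Cy5 signal, so it is no second check on Cy5. In Cy3, which holds the reference, the differences had the opposite sign to the ratio for isp-1 (-0.99), cox-17 (-0.03), cox-5A (-0.08), ndua-5 (-0.31) and ndub-7 (-0.76) for Rhine against Danube, and for ndua-5 (0.31) and gas-1 (0.85) for Elbe against Rhine.

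Weak signal limits what can be said: 45.7% to 61.6% of the spots of an array had the lowest confidence grade, and 10 of the 49 member probes failed the filter.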
